A study of Homo sapiens with 24 samples.

Results

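The neuronal genes KCNA2, NFASC, ELAVL4 and CNTNAP5 were followed through every library of a study of SET2 cells kept in JAK inhibitors. They are 4 of the 25082 genes in the deposited table of normalised read counts. They were picked from these data as genes off or nearly off in naive cells and high in libraries 1 and 3 of the line persistent to CYT387. Their values in naive cells and in that line are therefore given as a description, with no test, and they support nothing. The choice had no numeric threshold, so there is no edge to set members against. The data bore out the wording for KCNA2, with 0 reads in the 3 naive libraries, for CNTNAP5, with 1 read, and for NFASC, with 4 reads. ELAVL4 had 68 reads in naive cells and was low rather than off.

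SET2 cells are an established human cell line of megakaryoblasts, derived from essential thrombocythaemia and driven by an activating JAK2 mutation. Their poly(A)-selected RNA was read in 24 libraries, 3 for each of 8 groups. All cells grew in the same serum-supplemented medium. Naive cells received nothing; 4 persistent lines were grown continuously with 1 type I JAK inhibitor each, namely CYT387 (momelotinib), BMS911543, INC424 (ruxolitinib) or SAR302503 (fedratinib); and naive cells were exposed to INC424 for 4 h, to INC424 for 48 h or to DMSO, the vehicle, for 4 h. The labels give no concentrations, no length of the chronic exposure, and do not say whether each line arose once or whether replicates were separate cultures. The p-values thus measure the spread between these libraries, and a difference between inhibitors cannot be told apart from a difference in how each line happened to be derived. In bulk RNA, more cells with a transcript and more transcript per cell cannot be told apart.

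KCNA2 encodes a pore-forming subunit of the shaker-type (KCNA) voltage-gated potassium channels, which sit beside the nodes of Ranvier of myelinated axons and at axon initial segments and shorten the action potential. NFASC encodes neurofascin, an adhesion molecule of the L1CAM family that is held at nodes and initial segments by ankyrin G, the product of ANK3, together with sodium channels such as SCN8A. CNTNAP5 encodes a contactin-associated transmembrane protein of the neurexin superfamily; its relative CNTNAP2 and the contactin CNTN2 hold the potassium channels in place beside the node. ELAVL4, also called HuD, encodes an RNA-binding protein that stabilises AU-rich mRNAs and is used as an early mark of neurons. Many neuronal genes are kept silent outside neurons by the repressor REST, which binds the RE1 element. None of the 4 genes is a usual mark of megakaryoblasts.

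The promoters are shown because the 4 genes were high together in 1 line while differing in what lies before their start. Each sequence is the 250 bases before the most upstream annotated start in RefSeq (assembly GRCh38.p14), read 5′ to 3′ on the gene's strand. KCNA2 lies on the minus strand of chromosome 1, with its window at chr1:110631441-110631690. NFASC lies on the plus strand at chr1:204828402-204828651, ELAVL4 on the plus strand at chr1:50047805-50048054, and CNTNAP5 on the plus strand of chromosome 2 at chr2:124025037-124025286. Capitals mark matches, on either strand, to any of 4 motifs.
KCNA2: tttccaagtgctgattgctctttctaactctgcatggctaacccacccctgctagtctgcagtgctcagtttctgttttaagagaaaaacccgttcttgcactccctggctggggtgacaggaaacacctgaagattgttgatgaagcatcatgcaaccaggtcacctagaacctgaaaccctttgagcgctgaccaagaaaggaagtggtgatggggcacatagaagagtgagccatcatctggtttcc
NFASC: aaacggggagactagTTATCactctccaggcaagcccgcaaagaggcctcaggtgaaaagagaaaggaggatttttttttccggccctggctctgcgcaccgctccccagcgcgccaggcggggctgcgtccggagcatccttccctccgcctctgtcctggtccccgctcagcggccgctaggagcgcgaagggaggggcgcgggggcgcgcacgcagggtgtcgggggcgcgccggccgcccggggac
ELAVL4: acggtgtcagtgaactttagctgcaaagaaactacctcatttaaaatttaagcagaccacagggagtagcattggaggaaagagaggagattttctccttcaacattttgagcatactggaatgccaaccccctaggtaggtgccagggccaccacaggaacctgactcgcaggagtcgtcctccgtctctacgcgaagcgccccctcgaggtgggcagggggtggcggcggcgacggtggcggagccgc
CNTNAP5: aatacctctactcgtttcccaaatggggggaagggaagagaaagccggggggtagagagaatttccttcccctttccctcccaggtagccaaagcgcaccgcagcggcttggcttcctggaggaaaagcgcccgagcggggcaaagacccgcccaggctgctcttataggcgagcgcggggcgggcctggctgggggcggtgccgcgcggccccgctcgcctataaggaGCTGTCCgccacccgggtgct

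The motifs searched were GATAA, named for GATA factors and held by 21.0% of all 27305 promoter windows of that length, TTCNNNGAA, named for STAT factors and held by 6.76%, and TTCAGCACC and GGACAGC, the first and second parts of the RE1 element, held by 0.297% and 4.75%. NFASC had 1 GATAA match, on the opposite strand, at position -235 from the start. CNTNAP5 had 1 GGACAGC match, on the opposite strand, at position -21. The windows of KCNA2 and ELAVL4 held none of the 4 motifs, and no match overlapped another. A match describes the letters of the window only. The windows also differed in CpG content. KCNA2 had 2 CpG dinucleotides, and 15.3% of all windows had fewer; ELAVL4 had 14 (55.5%), CNTNAP5 21 (70.4%) and NFASC 27 (82.9%), against a median of 10. RefSeq lists 7 starts for ELAVL4, 2 each for KCNA2 and NFASC, and 1 for CNTNAP5, and the deposited table, which has 1 row per gene, does not say which start was used.

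Libraries held 21770721 to 36160750 reads assigned to genes. Library 2 of the CYT387 line stood apart. Squamous epithelium markers (10 genes) took 0.402% of its reads and markers of stroma, vessel and macrophages (10 genes) 0.649%, against at most 0.0986% and 0.0159% in any of the other 23 libraries. Its megakaryoblast markers (12 genes, among them GATA1, ITGA2B and KIT) took 0.294% of reads, against 0.427% to 0.775% in the others. Results that rest on this library are given with and without it. The next richest in squamous markers were SAR302503 line library 3 (0.0986%), INC424 line library 2 (0.0253%) and library 3 of INC424 at 48 h (0.0199%).

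KCNA2 was the plainest on-off case. Its normalised read counts in the CYT387 line were 665, 278 and 605 in libraries 1, 2 and 3, against 0 in each naive library. The mean was 516 ± 208 (SD, n = 3), at least 473-fold above naive cells when the naive group is set at a floor of 3 reads, and at least 583-fold without library 2. Of the gene's 1392 reads in all 24 libraries, 1342 (96.4%) came from the CYT387 line. It was also listed at 0 in every library of the SAR302503 line, of DMSO and of INC424 at 4 h. Low counts appeared in the BMS911543 line (4.56, 6.04 and 7.12), in the INC424 line (7.94, 13.6 and 1.58) and in library 3 of INC424 at 48 h (7.01), which also held more squamous marker RNA than the other libraries of its group; its part in that value was not tested. The order of the means was thus the CYT387 line, the INC424 line at 7.72 ± 6.02, the BMS911543 line at 5.90 ± 1.28 and INC424 at 48 h at 2.34 ± 4.05; these last 3 groups overlapped, and each lay below all CYT387 libraries.

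NFASC followed the same course on a trace of background. The CYT387 libraries held 883, 558 and 900 normalised read counts, and the naive libraries 0, 0 and 4.08. The means were 780 ± 193 and 1.36 ± 2.35, a 574-fold difference, or 656-fold without library 2. The INC424 line came next at 18.1, 25.5 and 21.4 (mean 21.7 ± 3.71), above every library outside the CYT387 line. The BMS911543 line followed at 2.74 to 8.05 and the SAR302503 line at 2.30 to 9.69, and these 2 lines overlapped. DMSO (0.814 to 4.74) and INC424 at 48 h (0 to 3.00) overlapped with naive cells, and all 3 libraries of INC424 at 4 h were listed at 0.

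ELAVL4 had reads in every library of naive cells and of the short exposures. Naive cells held 15.2, 27.0 and 30.6 normalised read counts, and cells given DMSO 31.7, 36.1 and 26.9. The CYT387 line held 1446, 251 and 1333, a mean of 1010 ± 660, which is 41.6-fold the naive mean of 24.3 ± 8.02 (57.3-fold without library 2). The other 3 persistent lines went the other way: ELAVL4 was listed at 0 in all 9 of their libraries. Against naive cells, with the floor of 3 reads over the group, it was at least 24.8-fold lower in the BMS911543 line, 26.2-fold lower in the INC424 line and 22.0-fold lower in the SAR302503 line. DMSO cells, which played no part in choosing the genes, gave bounds of at least 32.3-fold, 34.1-fold and 28.7-fold in the same order.

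CNTNAP5 had the least variable level within the CYT387 line. Its normalised read counts there were 403, 366 and 407, a mean of 392 ± 22.5. Naive cells held 0, 1.08 and 0, that is 1 read. The rate ratio was 1086, with a 95% Clopper-Pearson counting interval of 194 to 42943 that covers counting error only. The CYT387 line gave 1001 of the gene's 1007 reads (99.4%). The remaining reads were that 1 naive read, 1 read in INC424 line library 1 and 4 reads in library 2 of INC424 at 48 h. The other groups were listed at 0 throughout. For comparison, the CYT387 share of reads was 94.3% for NFASC (2017 of 2138) and 89.4% for ELAVL4 (2667 of 2983).

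**Figure D1:**
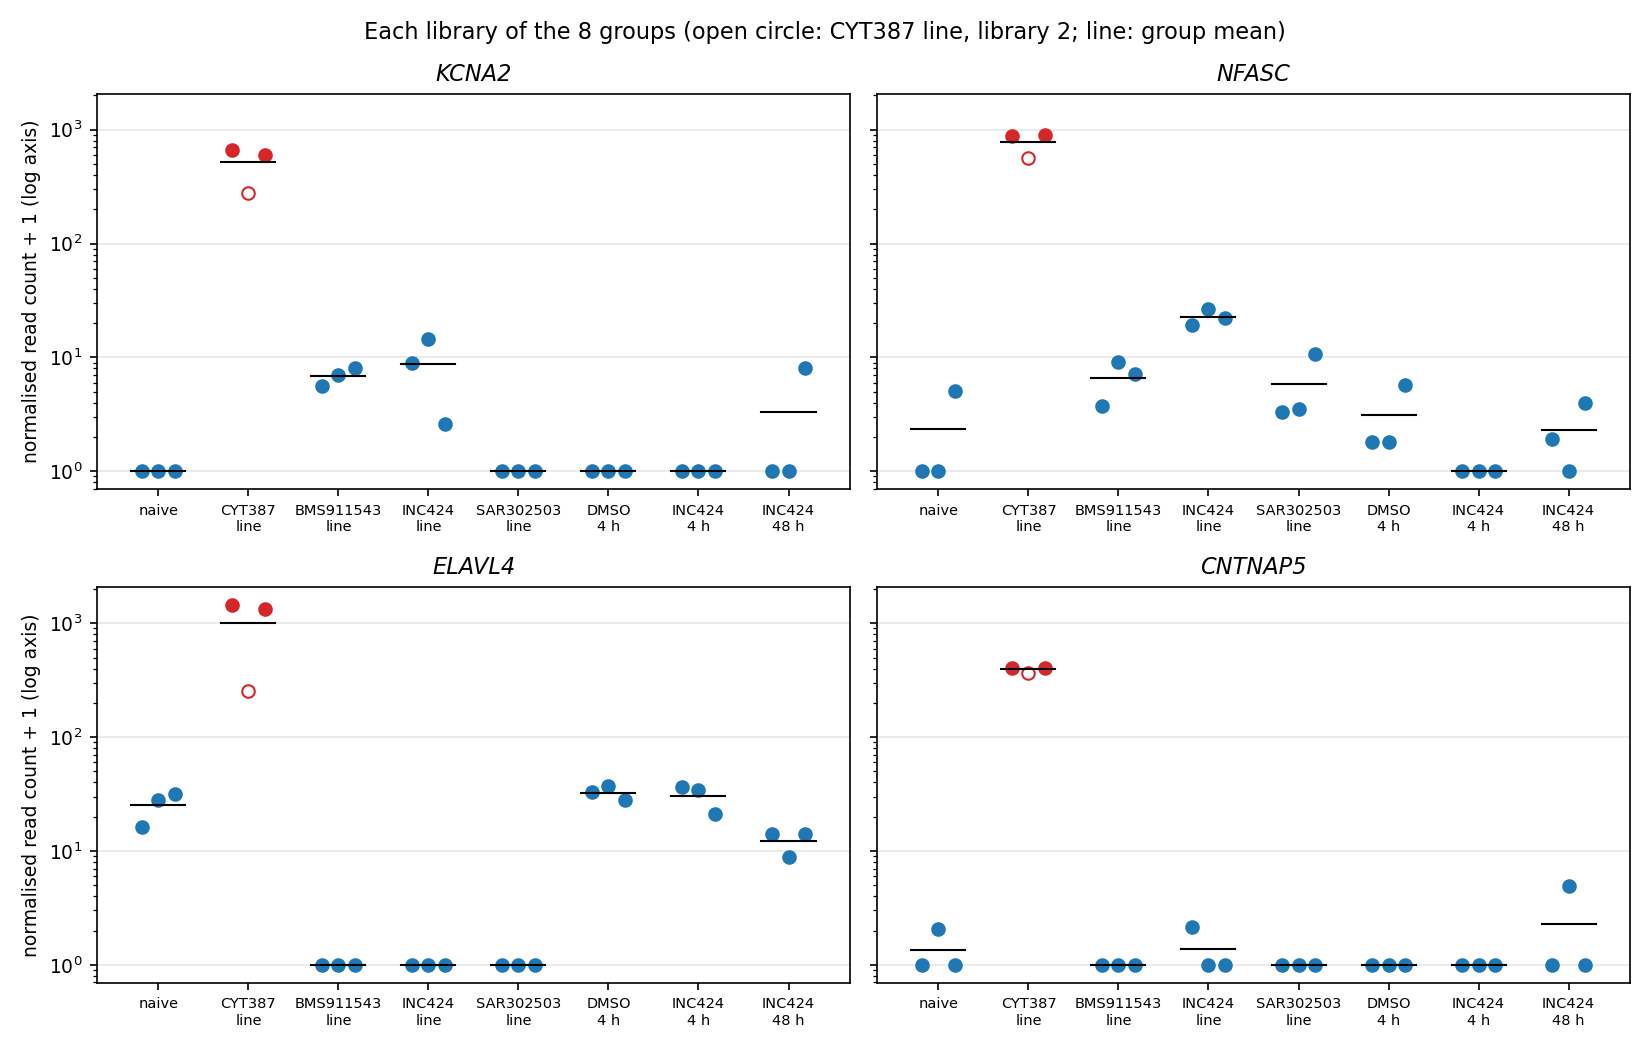
Normalised read count plus 1 (log axis) of KCNA2, NFASC, ELAVL4 and CNTNAP5 in each of the 24 libraries, by group; red marks the CYT387 line, the open circle its library 2, and the short line the group mean. All CYT387 libraries lie above every other library for each gene, and ELAVL4 sits at 0 in the 9 libraries of the other persistent lines while naive, DMSO and INC424-exposed cells hold 7.76 to 36.1.

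The 4 genes did not share one profile within the CYT387 line. In library 2, CNTNAP5 stood at 0.904 of the mean of libraries 1 and 3, NFASC at 0.626, KCNA2 at 0.437 and ELAVL4 at 0.181. The 12 megakaryoblast markers are the genes to set beside them. Each was lower in library 2 than in libraries 1 and 3, with a median ratio of 0.402 (from 0 for PF4 to 0.629 for GATA1). KCNA2 and NFASC fell within that range of ratios, CNTNAP5 above it, and ELAVL4 below all of those markers but PF4. The part of the squamous and stromal RNA in these ratios was not tested.

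**Figure D2:**
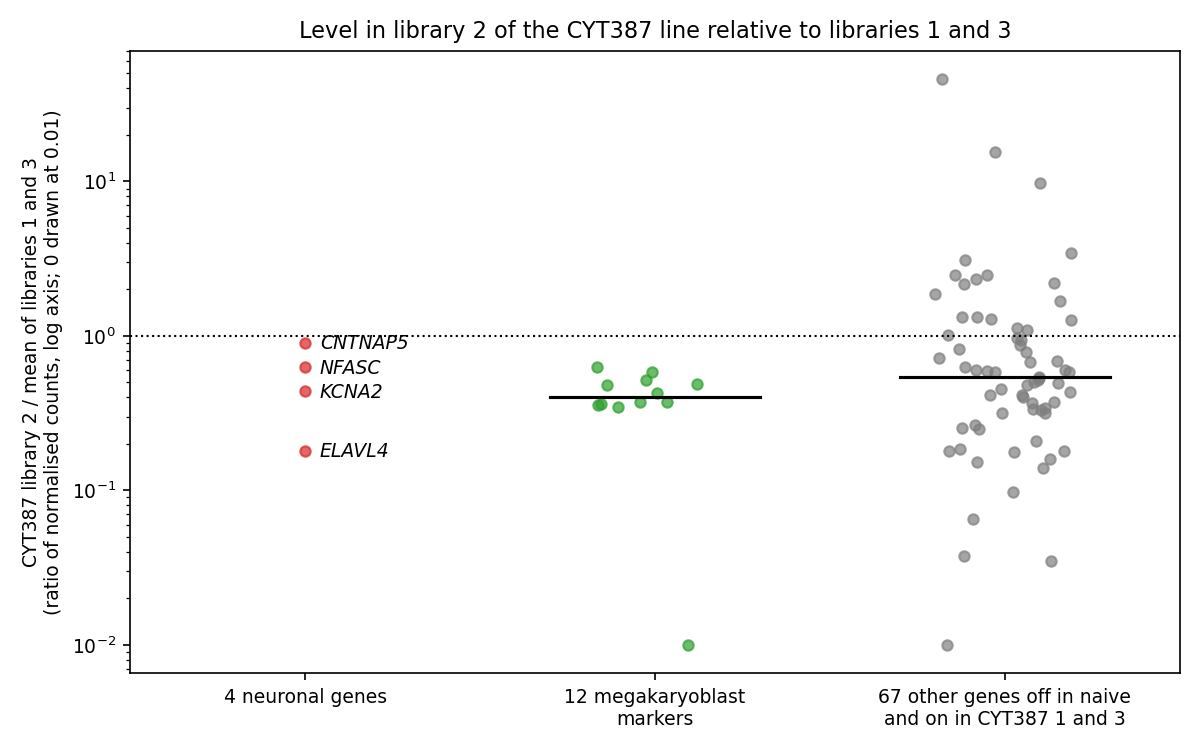
Ratio of the normalised read count in library 2 of the CYT387 line to the mean of libraries 1 and 3 (log axis) for the 4 neuronal genes, for 12 megakaryoblast markers and for 67 other genes off in naive cells and on in libraries 1 and 3; horizontal lines are medians, the dotted line is equal level, and ratios of 0 are drawn at 0.01. The 4 genes spread from 0.181 to 0.904, around the medians of 0.402 and 0.539 of the comparison sets.

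The choice of genes did not use the other 3 persistent lines or the short exposures, so the 6 comparisons among those groups were tested. All 4 genes passed the filter for testing, which asked for a normalised read count of at least 10 in at least 3 libraries. Outside the CYT387 line, a count of 10 was reached by CNTNAP5 in 0 libraries, by KCNA2 in 1, by NFASC in 3, all of the INC424 line, and by ELAVL4 in 11. KCNA2 and CNTNAP5 were thus tested only because of the libraries they were chosen on, and NFASC without those libraries only because of the INC424 line. The KCNA2 and NFASC differences below are given with that limit. Differences below are fitted log2 differences of the normalised count plus 1, which understates the change of genes this low. A gene passed at a Benjamini-Hochberg adjusted p under 0.05 over the 20154 genes tested.

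KCNA2 was higher in the BMS911543 line than in the SAR302503 line by 2.77 (SE 0.74, adjusted p = 0.0081), with 18 reads against 0 and no overlap. It was the only 1 of the 4 genes to pass, against 25.5% of all genes tested in that comparison. In the INC424 line, KCNA2 was higher than in the SAR302503 line by 2.80 (SE 0.74, adjusted p = 0.0134; 25 reads against 0). Of the libraries compared, INC424 line library 2, with the highest of these KCNA2 values (13.6), and SAR302503 line library 3 were among the 4 richest in squamous markers; without those 4 libraries the difference was 2.26 (adjusted p = 0.0199). NFASC was higher there as well, by 2.17 (SE 0.70, adjusted p = 0.0445), at 18.1 to 25.5 against 2.30 to 9.69. That made 2 of 4 genes, where 12.7% of all genes passed. The NFASC call was close to the threshold: its adjusted p ran from 0.0042 to 0.159 over the alternatives, and it was lost when any 1 of 5 libraries of the compared lines was left out (adjusted p 0.0887 to 0.159), all but library 3 of the SAR302503 line. The KCNA2 call against the SAR302503 line was lost without library 1 or 2 of the INC424 line (adjusted p 0.0601 and 0.0833) and with the compared groups alone (0.0636). A pseudocount of 10 ended both KCNA2 calls, with adjusted p = 0.108 for the BMS911543 line and 0.101 for the INC424 line.

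Between the BMS911543 and INC424 lines, 0 of the 4 genes passed in limma, where 16.5% of all genes did. NFASC differed there by -1.86 (SE 0.70, unadjusted p = 0.015, adjusted p = 0.0777), with no overlap between the lines, and did not pass in edgeR. It passed in limma with the replicate block (adjusted p = 0.0421), a pseudocount of 10 (0.00726) or the compared groups alone (0.0178), and in DESeq2 on the recovered reads (0.00396). It was 1 of 4 genes at an unadjusted p under 0.05, where 28.2% of all genes were. KCNA2 differed by -0.03 (SE 0.74, adjusted p = 0.987) and did not pass. ELAVL4, at 0 in these 3 lines, offered nothing to compare.

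Short exposure to INC424 was also free of the choice. ELAVL4 was the gene with enough reads to follow. Its normalised read counts were 31.7, 36.1 and 26.9 with DMSO, 35.2, 33.4 and 20.0 after 4 h of INC424, and 13.1, 7.76 and 13.0 after 48 h. The 4 h values overlapped with DMSO (difference -0.13, SE 0.54, adjusted p = 0.939), while all 48 h values lay below all DMSO and 4 h values. Against DMSO, the 48 h group was lower by 1.43 on the log2 scale (log2 difference -1.43, SE 0.54, adjusted p = 0.0452), in a comparison where 33.9% of all genes passed. DMSO was sampled at 4 h only, so time in culture and 48 h of inhibitor cannot be told apart there. The call sits at the threshold: leaving out any 1 of the 6 libraries compared ended it (adjusted p 0.069 to 0.156), as did edgeR (0.0527).

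Against INC424 at 4 h, ELAVL4 at 48 h was lower by 1.30 on the log2 scale (log2 difference -1.30, adjusted p = 0.115) and did not pass. Thus 0 of the 4 genes passed there in limma, where 14.7% of all genes did; ELAVL4 alone had an unadjusted p under 0.05 (0.0247; 27.1% of all genes), edgeR and DESeq2 called none, and without library 2 of the CYT387 line ELAVL4 passed at 0.0241. From DMSO to INC424 at 4 h 0 of 4 genes passed in limma and in edgeR, with none at an unadjusted p under 0.05, where 8.37% of all genes passed and 20% had an unadjusted p under 0.05. NFASC, with 8 reads in DMSO and 0 at 4 h, gave -1.42 (adjusted p = 0.267) in limma and passed in DESeq2 (adjusted p = 0.0444). KCNA2, at 0 in DMSO and in 2 of 3 libraries at 48 h, and CNTNAP5, with 4 reads at 48 h, did not pass.

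The relatives of the 4 genes moved unevenly in the CYT387 line. KCNA10, a channel of the KCNA family best known from inner ear and kidney, was at 0 in naive cells and at 154, 92.2 and 190 in the CYT387 line, at least 133-fold higher (at least 158-fold without library 2). KCNA3, the KCNA channel of lymphocytes, rose from 31.7, 34.5 and 14.3 to 129, 146 and 120 (log2 difference 2.34, SE 0.57, adjusted p = 0.0053). The cytoplasmic beta subunits KCNAB1 and KCNAB2, which bind KCNA channels, rose by 2.08 (SE 0.40, adjusted p = 7.5e-04) and 0.42 (SE 0.12, adjusted p = 0.0157). Thus 4 of the 6 other subunits tested passed upward and none downward, with library 2 and without it, where 11.2% of all genes tested were higher (9.61% without library 2). KCNA10 entered the test through the CYT387 libraries alone; of the 5 that entered without them, 3 passed upward. KCNA7 (log2 difference -0.01, adjusted p = 0.995) did not pass.

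L1CAM, the founding member of the family of NFASC, rose from 64.5, 134 and 76.4 in naive cells to 862, 499 and 757 (log2 difference 2.97, SE 0.47, adjusted p = 1.1e-04). The other relatives of NFASC were not carried by libraries 1 and 3. NRCAM, a nodal partner of NFASC, stood at 3.55, 588 and 0 in the CYT387 libraries, and CHL1 at 0, 54.0 and 0, so their reads there lay in library 2. ELAVL1, the widely expressed relative of ELAVL4, was at 5149, 4260 and 4870 against 4799 to 5208 in naive cells and did not pass (log2 difference -0.09, adjusted p = 0.506). The neuronal relatives ELAVL2 and ELAVL3 stayed at 0 to 1.18 and 0 to 5.31 in the CYT387 line. ELAVL4 was thus the 1 neuronal ELAVL gene with more than a few reads there.

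CNTNAP2 rose in the CYT387 line, at 430, 1262 and 421 against 63.6 to 96.1 in naive cells (log2 difference 2.88; 2.36 without library 2). Unlike CNTNAP5 it was also present in the BMS911543 line, at 203 to 274, and in INC424 at 48 h, at 119 to 159. CNTNAP1, the partner of contactin beside the myelin loops, was at 293 to 453 in the CYT387 line against 261 to 321 in naive cells and did not pass (0.31, adjusted p = 0.203). CNTNAP3 and CNTNAP4 had 0 reads in naive cells and at most 19.7 and 11.8 in a CYT387 library.

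**Figure D3:**
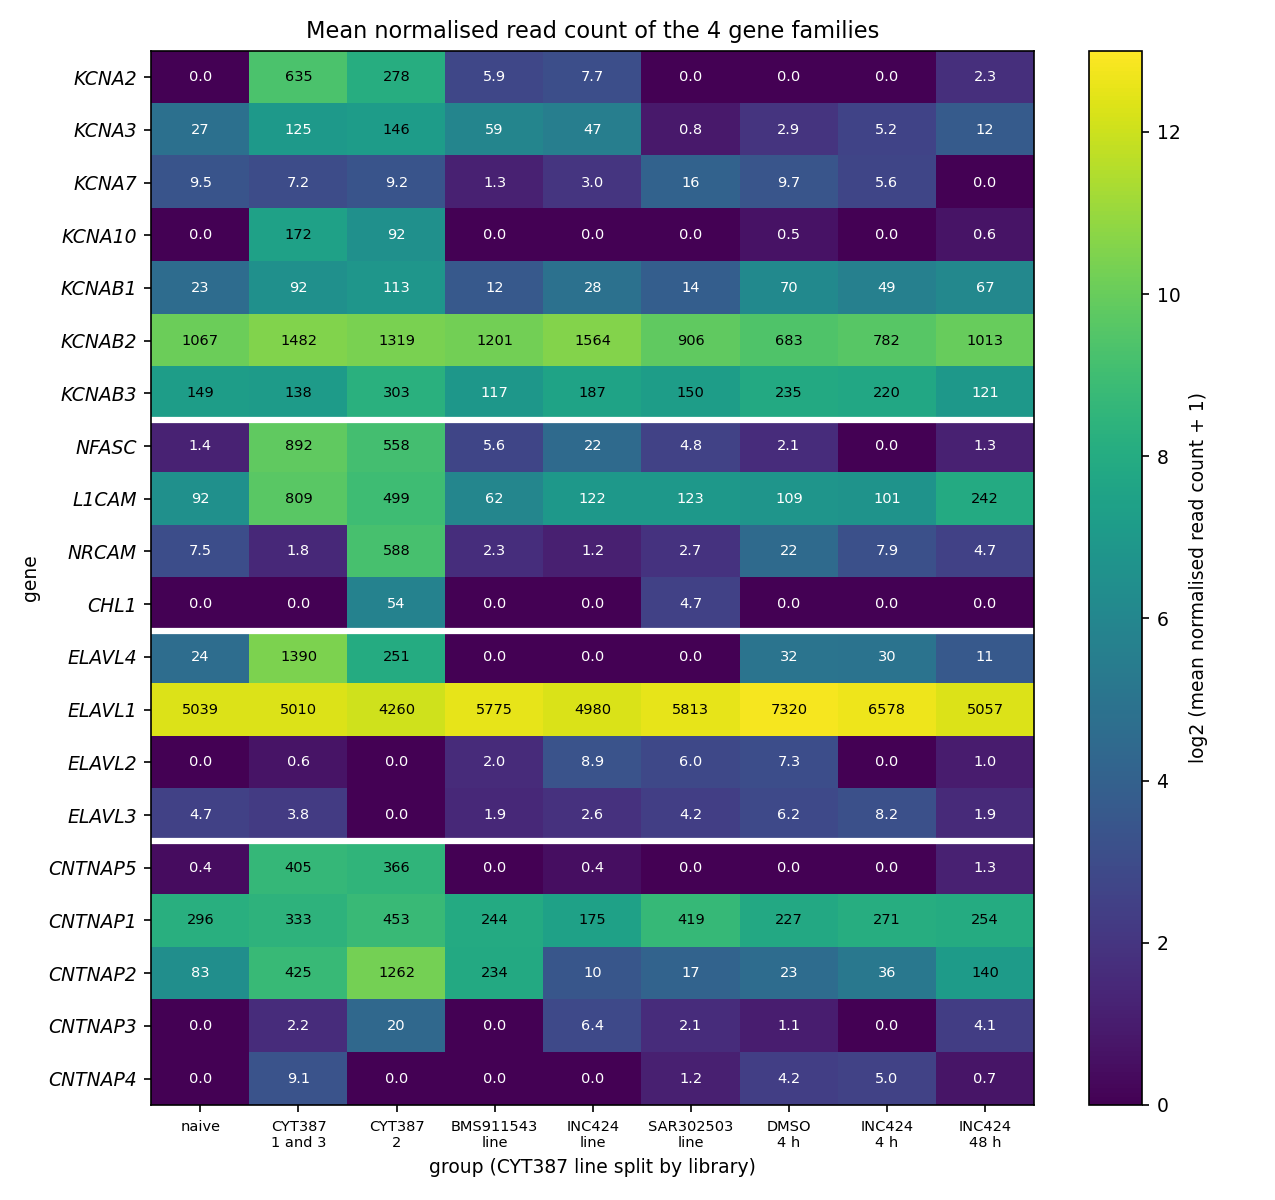
Mean normalised read count (number in each cell; colour on a log2 scale of the mean plus 1) for the KCNA, L1CAM, ELAVL and CNTNAP families by group, with the CYT387 line split into the mean of libraries 1 and 3 and library 2. KCNA2, KCNA10, NFASC, ELAVL4 and CNTNAP5 are high in both CYT387 columns, while NRCAM and CHL1 are high in library 2 alone.

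Beyond these families, 6 lists of neuronal genes were read in the same comparison, leaving the 4 genes out. The lists were chosen with earlier results of these data known, so their counts are a description and no independent support. They hold potassium channel subunits, node and axon adhesion, RNA-binding proteins, pan-neuronal and synaptic genes, dense-core granule genes and proneural transcription factors, 126 genes in all. Of these, 93 were in the table and 68 were tested. In the CYT387 line 28 of 68 were higher than in naive cells (41.2%) and 3 were lower, where 11.2% of all genes tested were higher and 11.1% lower. Without library 2 the numbers were 27 and 4, against 9.61% and 8.75% of all genes. The median log2 difference was 1.27, or 0.95 without library 2, and 0 over all genes tested. Since 5 of the 68 passed the filter only through the CYT387 libraries, the remaining 63 were also counted: 24 were higher (38.1%) and 3 lower, beside 10.9% higher among all 19725 such genes. A fit of the CYT387 and naive libraries alone called 15 higher and 0 lower, and 522 genes in all instead of 4501.

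Pan-neuronal and synaptic genes gave 11 of 23 higher and 1 lower. UNC13A, which primes synaptic vesicles for release, went from 5.86, 14.0 and 19.4 in naive cells to 3542, 1081 and 3136 (log2 difference 7.48, SE 0.50, adjusted p = 5.6e-10). SNAP25, a SNARE protein of vesicle fusion, was at 0 in naive cells and at 74.6, 84.3 and 38.3 in the CYT387 line, at least 60.3-fold higher. MAP2, a microtubule protein of dendrites, rose from at most 1.17 to 48.5, 448 and 49.9, so that library 2 held most of its reads. GAP43, a growth cone protein, rose from 0 to 17.1 to 23.7. Summed over the 27 markers in the table, this list took 0.0660%, 0.0654% and 0.0615% of reads in CYT387 libraries 1, 2 and 3. Naive cells gave 0.0255% to 0.0403%, and 2 to 3 of the markers were at 0 in each CYT387 library. Different genes made up these sums. UCHL1 was at 3973 and MAPT at 1686 in library 2, against 13.0 and 0, and 59.2 and 79.7, in libraries 1 and 3. In libraries 1 and 3 the sum lay largely in UNC13A, ENO2 (8062 and 7494) and GAD1 (3756 and 3581). Naive cells already held ENO2 at 3746 to 6411 and GAD1 at 1313 to 1957. In the other persistent lines GAD1 was at 2803 to 3772 and ENO2 at 2922 to 6364. UCHL1, MAPT, ENO2 and GAD1 were named after their values were seen. NCAM1, a neural adhesion molecule and the 1 gene that fell (log2 difference -1.65, named after its values were seen), was at 13.0, 130 and 37.2 in the CYT387 libraries and at 118 to 139 in naive cells; the difference was -2.48 without library 2.

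Node and axon adhesion genes gave 9 of 22 higher and 1 lower (8 and 2 without library 2). The lower genes included the sodium channel SCN3A with all libraries and DLG1 without library 2, both named after their values were seen. SCN8A, the nodal sodium channel, went from 0, 0 and 2.04 to 46.2, 46.1 and 59.5 (log2 difference 5.14, SE 0.90). ANK3 went from 6.11 to 10.5 up to 116, 604 and 88.2, and CNTN2 from 2.16 to 8.15 up to 45.0, 44.8 and 80.8. These are partners of NFASC and KCNA2 at the node, and all 3 passed with library 2 and without it. The rise of CNTN2 was not particular to the CYT387 line, since the INC424 line held 113, 72.4 and 59.4.

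Among RNA-binding proteins 2 of 9 were higher and 1 lower. NOVA1, a splicing regulator of neurons, rose from 7.55 to 9.17 up to 221, 378 and 223 (log2 difference 4.84, SE 0.35, adjusted p = 1.9e-09), RBFOX2 rose by 0.82, and PTBP2, the neural polypyrimidine tract protein, fell by 0.79 on the log2 scale. NOVA1 was also above the naive libraries with DMSO, at 55.4, 93.6 and 50.6. With INC424 it was at 90.2, 161 and 136 after 4 h and at 166, 161 and 136 after 48 h. Of 4 granule genes 2 were higher (1 without library 2), among them PCSK1, a prohormone convertase, which rose from 11.9 to 24.6 up to 184, 145 and 155. Of 4 proneural factors tested 0 passed in limma; without library 2, PAX6 passed at 0.59 (adjusted p = 0.0263). Some listed genes were high in library 2 only. SOX2 was at 7.10, 5386 and 1.06, CNTN1 at 5.92, 2263 and 6.38, and UCHL1 at 13.0, 3973 and 0; these 3 were picked after their values were seen.

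**Figure D4:**
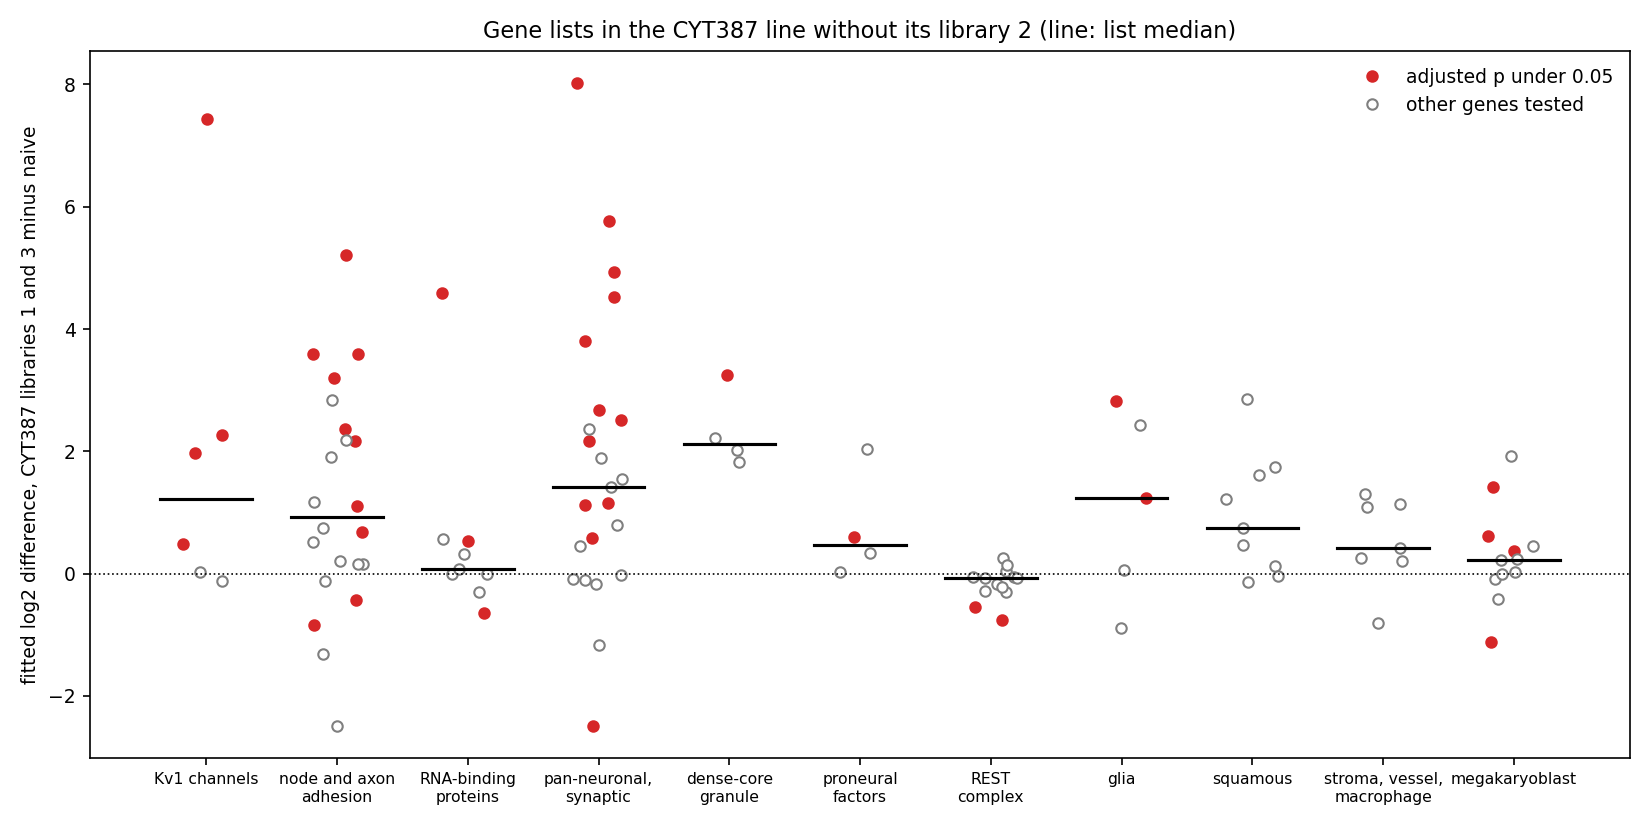
Fitted log2 difference between libraries 1 and 3 of the CYT387 line and naive cells for each tested gene of 11 lists (6 neuronal, the REST complex, and markers of glia, squamous epithelium, stroma and megakaryoblasts); filled red circles passed the test, lines are list medians and the dotted line is 0. The neuronal lists carry 27 genes of 68 that passed upward and 4 downward, and the squamous and stromal lists carry none that passed. The glial list carries 2 of 5 upward and 0 downward. Of the 12 megakaryoblast markers 3 passed upward and 1 downward, and of the 13 genes of the REST complex 0 and 2.

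The other persistent lines were compared with the same naive libraries, so the counts share their controls. Of the 68 genes the INC424 line had 15 higher and 7 lower, where 9.95% and 12.5% of all genes were. The SAR302503 line had 10 and 5 (8.7% and 10.6% of all genes), and the BMS911543 line 4 and 8 (10.4% and 14.2%). DMSO cells had 5 and 9 against the naive libraries (11.4% and 14.6%). Their medians were 0.30, 0.11, -0.08 and 0.20. Without library 2 of the CYT387 line in the shared fit, these counts became 20 and 10 in the INC424 line (15.6% and 17.3% of all genes), 14 and 6 in the SAR302503 line (14.4% and 15.9%), 8 and 13 in the BMS911543 line (15.9% and 19.1%), and 8 and 9 with DMSO (17.2% and 20.2%). Squamous markers moved in the same comparisons: 2 of 9 were higher in the INC424 line (6 without CYT387 library 2), 5 in the SAR302503 line (8), 0 in the BMS911543 line (0) and 0 with DMSO (1). They took 0.00455% to 0.0253% of reads in the INC424 line and 0.00698% to 0.0986% in the SAR302503 line, against 0.000215% to 0.00182% in naive cells. Their part in the neuronal counts was not tested.

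Glial and foreign markers were read beside these lists. Glial markers (7 genes in the table) took 0.0139% to 0.0217% of reads in the CYT387 line and 0.01005% to 0.01101% in naive cells. OLIG2 and PMP22 rose among the 5 tested, and OLIG1 was at 0 in some CYT387 libraries. Squamous markers gave 1 of 9 higher, and 0 without library 2, while stromal markers gave 2 of 7, and 0 without library 2. The megakaryoblast markers that make SET2 recognisable took 0.761%, 0.294% and 0.775% of reads in CYT387 libraries 1, 2 and 3, and 0.596% to 0.726% in naive cells. Of the 12, 1 was higher and 2 were lower, or 3 and 1 without library 2. Beside all these marker counts, 11.2% of all genes tested were higher and 11.1% lower, or 9.61% and 8.75% without library 2. ITGB3 rose by 1.11, and KIT fell by 1.60 and JAK2 by 0.83 on the log2 scale; JAK2 did not pass without library 2 (log2 difference -0.42, adjusted p = 0.0594).

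REST itself was at 1351, 1199 and 1434 in the CYT387 line against 1392, 1268 and 1400 in naive cells and did not pass (log2 difference -0.03, SE 0.12, adjusted p = 0.883). RCOR1, its corepressor, was lower at 2972, 2093 and 3112 against 4078 to 5217 (log2 difference -0.73, SE 0.14, adjusted p = 6.7e-04; -0.55 without library 2). RCOR1 was also below every naive library in the BMS911543 line (2517, 2419 and 2521) and in the INC424 line (3057, 3229 and 3200). The SAR302503 line held 3897, 4337 and 3045. HDAC2, a histone deacetylase of the same complex, fell by 1.00 on the log2 scale in the CYT387 line. Of the 13 genes listed for the complex 0 were higher and 4 lower in limma, or 0 and 2 without library 2, where 11.1% and 8.75% of all genes were lower, and the median was -0.19 (-0.07 without library 2).

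Likeness across libraries was measured as Pearson's r of log2 values over 23 libraries, leaving out CYT387 library 2, among 15737 genes with a mean of at least 50 in some group. The points share their groups and scaling, so r is a description. The 23 libraries also include the naive and CYT387 libraries on which the followed genes were chosen. A high r among those genes, or to other genes high mainly in the CYT387 line, is thus partly built in by the choice. The size of that part was not tested. KCNA2 and NFASC were each other's closest gene (r = 0.911). KCNA2 was next most alike to OLFM3 (0.888), an olfactomedin-domain protein of brain and retina, to the cadherin DCHS2 (0.885), to FSTL1 (0.882) and to MAST4 (0.881). NFASC was next most alike to ITGB3 (0.892), a platelet integrin chain, to the lipid transporter ABCA3 (0.886), to FSTL1 (0.881) and to the receptor CD40 (0.881).

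ELAVL4 stood apart from its companions, with r of 0.416 to KCNA2, 0.314 to NFASC and 0.698 to CNTNAP5. Its closest genes were CRYBA2 (0.949), a lens crystallin, F2R (0.919), the thrombin receptor, CYP27B1 (0.911), the vitamin D hydroxylase, GP6 (0.891), the platelet collagen receptor, and FAM155A (0.891). CRYBA2 was, like ELAVL4, at 0 in the 9 libraries of the other 3 lines, at 2.34 to 7.13 in naive cells and at 43.4 to 120 in the CYT387 line. CNTNAP5 was closest to RIC3 (0.990), a chaperone of acetylcholine receptors, to CACNG7 (0.967), an AMPA receptor auxiliary subunit, to MYO3A (0.965), to the extracellular matrix protein TNR (0.961) and to KCNA10 (0.951). RIC3 had 0 reads in every group but the CYT387 line, at 55.3 to 68.0, and INC424 at 48 h, with 1 read.

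Across the table, 70 of 25082 genes (0.279%) had a naive mean under 5 and at least 50 in each of CYT387 libraries 1 and 3. By the mean of those libraries NFASC ranked 3, KCNA2 ranked 6 and CNTNAP5 ranked 9; ELAVL4 was outside because of its naive level. PLCE1, a phospholipase, led at 1262, 675 and 1042. GPR158, an orphan receptor of brain, TMEM132E, UNC80, a subunit of the sodium leak channel, GABRA3, a GABA receptor subunit, and EYA4 were also among the first 10. TMEM132E was not off outside the CYT387 line. Its mean was 690 in CYT387 libraries 1 and 3, 503 with DMSO, 152 with INC424 at 4 h and 118 at 48 h. Of the 70 genes, 27 had a mean under 10 in every other group, among them KCNA2 and CNTNAP5 but not NFASC, which reached 21.7 in the INC424 line. A mean of at least 10 was reached by 29 of the 70 in the INC424 line, 14 in the BMS911543 line and 13 in the SAR302503 line, and by 18 with DMSO, 15 with INC424 at 4 h and 20 at 48 h. The 67 genes other than KCNA2, NFASC and CNTNAP5 had a median library 2 ratio of 0.539 (quartiles 0.317 and 1.11), and 47 of them were lower in library 2 than in libraries 1 and 3.

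The genes next to the 4 on their chromosomes, in RefSeq order, differed from place to place. KCNA2 lies between KCNA10 and KCNA3, which both rose; beyond them PROK1 had at most 4.74 in a CYT387 library and CD53 did not pass (-0.42, adjusted p = 0.072). On the sides of NFASC, CNTN2 rose by 3.45 and LRRN2 by 1.72, MDM4 fell by 0.84 on the log2 scale, and TMEM81 did not pass (0.40, adjusted p = 0.239). CNTN2 was also above naive cells in the INC424 line, at 113, 72.4 and 59.4. Around ELAVL4, BEND5 (-0.01) and FAF1 (-0.14) did not pass, AGBL4 was not tested, and DMRTA2 was not tested either, with reads mainly in library 2. Around CNTNAP5, BIN1 rose by 0.99 (adjusted p = 0.0037), while CLASP1, TSN and GYPC did not pass. RefSeq places the antisense gene ELAVL4-AS1 over ELAVL4. The table has no row for it, and whether counting used strand is not given in the sources used here, so reads of the pair cannot be told apart.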

How the data were processed

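Poly(A) RNA of 24 SET2 libraries was sequenced on an Ion Proton, per the labels' protocols. The deposited table gives 25082 genes as a signal, the read count of each gene after the authors divided it by 1 size factor per library, as its values show. The submitters' processing notes name BWA 0.7.5.1, HTSeq 0.5.3p3, DESeq 1.10.1, hg19 and GRCh37; what each was used for, and whether counting used strand, are not given in the sources used here. All columns were mapped to labelled samples. Dividing a library by its smallest step returned whole reads within 0.01 for 100% of values; in 3 libraries that step is itself within 0.01 of 1. In the labels 8 libraries were run again and 1 was run on 2 lanes, none of them naive or CYT387.

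Values plus 1 were log2-transformed, and the 20154 genes with at least 10 in at least 3 libraries were fitted with limma 3.58.1 (R 4.3.3, empirical Bayes with trend, 24 libraries, 8 groups, 16 residual degrees of freedom, two-sided, Benjamini-Hochberg within each comparison, threshold 0.05). The 4 genes and the lists were chosen with earlier results of these data known. The 4 genes were tested only in the 6 comparisons their choice did not use. Named besides them are members of their families, REST and RCOR1, up to 4 genes per list with the largest change past the threshold without CYT387 library 2 (2 with the highest mean where none passed), the 5 most alike genes, neighbours, cell type markers and the first 10 switched-on genes. Folds against a group at 0 use a floor of 3 reads over the group, and ratios on 1 to 3 reads carry a 95% Clopper-Pearson interval; both cover counting error only. Library depth of 21770721 to 36160750 reads sets that precision. Promoter sequences are RefSeq's own on GRCh38.p14; they were not joined to the files' coordinates, and all 4 genes matched by symbol.

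Alternatives were pseudocounts of 0.5 and 10, no filter or a filter at 50, TMM and upper-quartile scaling, robust limma, a term for replicate number (replicate block) or for libraries run again, count tests on the recovered reads (edgeR 4.0.16 and DESeq2 1.42.0), the compared groups alone, and leaving out libraries. The fit without CYT387 library 2 kept the same 20154 genes, and this and leaving out the 4 libraries richest in squamous markers were added after seeing the data. On data simulated for the INC424 line against the SAR302503 line over 20154 genes, 46% of the genes with a 2-fold change were found, 88% with a 4-fold and 98% with a 10-fold change, and 15 of 19954 unchanged genes were called. Changed genes were drawn above a minimum mean over all libraries, and simulated means were otherwise equal in all groups. These shares were not measured for genes with as few reads in these lines as KCNA2 (mean 7.72 against 0) or NFASC (21.7 against 4.84).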

Additional observations from a re-analysis of the deposited data

Results flagged for a closer look

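The labels give the persistent lines the same kind of chronic exposure, and 3 differences between lines outside the CYT387 line passed the test of the difference itself. KCNA2 was higher in the BMS911543 line than in the SAR302503 line by 2.77039 on the log2 scale (adjusted p = 0.0081, limma; higher in 3 of 3 libraries than in all of the others). KCNA2 was higher in the INC424 line than in the SAR302503 line by 2.80009 (adjusted p = 0.0134), again without overlap. NFASC was higher in the INC424 line than in the SAR302503 line by 2.1695 (adjusted p = 0.0445). These rest on 18, 25 and 73 reads in the higher line. They make 1 of 4 genes for the BMS911543 line, where 25.5% of all genes passed, and 2 of 4 for the INC424 line, where 12.7% did. KCNA2 was in the tested set only through the CYT387 libraries. Both KCNA2 calls were lost with a pseudocount of 10 (adjusted p = 0.108 and 0.101), and the one for the INC424 line also without its library 1 or 2 (0.0601 and 0.0833). The NFASC call was lost on leaving out any 1 of 5 of the 6 libraries compared (0.0887 to 0.159).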

How the results depend on the processing

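No difference changed direction past a threshold under any alternative run, and for single genes 442 alternative values kept their side of the threshold, 30 lost it and 8 gained it. The 442 include genes with 0 reads in both groups compared, such as ELAVL4 between the BMS911543 and INC424 lines. Those had no reads to compare, so the 442 are no measure of how firm the results are. Among the 4 genes, the count passing between the BMS911543 and INC424 lines went from 0 to 1, NFASC, with a pseudocount of 10, the replicate block, DESeq2 or the compared groups alone. Between the BMS911543 and SAR302503 lines it went from 1 to 0 with a pseudocount of 10. Between the INC424 and SAR302503 lines it went from 2 to 1 with pseudocounts of 0.5 or 10, no filter, a filter at 50, the run-again term or edgeR, to 0 with the compared groups alone, and ranged from 0 to 2 when 1 library was left out. From DMSO to INC424 at 4 h it went from 0 to 1, NFASC, in DESeq2. From DMSO to INC424 at 48 h it went from 1 to 0 with pseudocounts of 0.5 or 10, no filter, a filter at 50, upper-quartile scaling, the replicate block, the run-again term and edgeR, and ranged from 0 to 1 when 1 library was left out. From 4 h to 48 h of INC424 it went from 0 to 1, ELAVL4, with the compared groups alone or without the 4 libraries richest in squamous markers, and ranged from 0 to 1 when 1 library was left out. The causes were not tested. These counts turn on genes with few reads, and depth limits them.

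Of the neuronal list genes, 28 were higher and 3 lower in the CYT387 line; the compared groups alone gave 15 and 0, and leaving out the 4 libraries gave 5 lower. Of the 5 genes most like NFASC, 3 stayed among its 5 with all 24 libraries. Over all genes the CYT387 line against naive cells gave 4501 calls, 5160 in edgeR, 5643 in DESeq2 and 522 with the compared groups alone. The share of higher calls was 50.3%, and 40.8% with upper-quartile scaling, 59.2% in edgeR, 58.6% in DESeq2 and 70.9% with the compared groups alone. Same-numbered replicates did not deviate together (r from -0.17 to 0.18 over 7 comparisons, never above 0.1 for every number), so the numbers were not taken to pair libraries; the replicate block left 28 and 3 list genes and changed no other call than those named.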
